A study of Mus musculus with 13 samples.

Results

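Signalling by bone morphogenetic proteins (BMP) and by Wnt proteins was followed through 42 genes: 19 of the BMP pathway and 23 of the Wnt pathway. The genes were picked by symbol from a table of 24394 gene symbols, as ligands, receptors, antagonists, intracellular regulators and targets. All 42 had a row in the table, and all 42 were among the 17004 genes with enough counts to be tested.

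The 13 RNA libraries came from a study of the conversion of mouse embryonic fibroblasts (MEF) into induced thymic epithelial cells (iTEC) by Foxn1, a transcription factor without which thymic epithelial cells (TEC) do not mature. The fibroblasts were primary iFoxn1/+ cells, which carry a copy of Foxn1 that Cre recombinase switches on. The groups were iTEC at day 2 after Cre (n = 2), iTEC at day 10 (n = 3), iTEC at day 12 sorted as Epcam-positive (n = 2) or Epcam-negative (n = 2), TEC of the fetal thymus at E15.5 (n = 2) and untreated MEF of E13.5 (n = 2). Cre came from the plasmid pPGK-Cre-bpA, delivered by nucleofection, so that Cre acted in the cells that took up the plasmid. The labels give no genotype for any group, fetal TEC included, and the same culture and sorting text stands under all of them. Whether replicates were separate cultures or animals is not stated, and the p-values measure the spread between these libraries, which may be technical.

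BMP ligands bind paired type I and type II receptors, which phosphorylate receptor Smads that enter the nucleus and switch on genes such as those of the Id and Msx families. Wnt ligands bind Frizzled receptors with the co-receptors Lrp5 or Lrp6, which stabilises beta-catenin and lets it act with TCF/LEF factors on targets, several of which feed back to restrain the pathway. In the thymus, Wnt4 and Bmp4 are among the signals known to act on TEC and on the expression of Foxn1.

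The libraries held 35805780 to 86465460 counts. Levels are given as CPM, read counts scaled to a common library size with the TMM factor of edgeR, which lay between 0.71 and 1.16. At 3 counts a gene stood at 0.03 to 0.0776 CPM, depending on the library, and bounds or intervals built on such counts cover counting error only. Foxn1 stood at 292 to 468 CPM in all libraries after Cre and in fetal TEC, against 13 to 18.3 CPM in MEF. Epcam stood at 4.8 and 30.6 CPM in Epcam-positive libraries, against 0.56 and 0.29 CPM in Epcam-negative ones, and the first Epcam-positive value was below the 5.03 to 5.53 CPM of unsorted day 10 iTEC. Long transcripts were under-represented in Epcam-positive replicate 2 and in the fetal TEC pair (rank correlation of a gene's deviation with its transcript length, -0.409 to -0.365, against 0.238 to 0.354 in the other 10 libraries, across genes). Xist stood at 795 to 2280 CPM in MEF and Epcam-negative libraries and at no more than 8.21 CPM in the others, while 4 Y-linked genes summed to 46.3 to 326 CPM in day 2, day 10 and Epcam-positive libraries and to at most 0.0164 CPM in MEF and Epcam-negative ones. Sex of the source embryos and Cre therefore cannot be told apart in day 2 and day 10 iTEC against MEF.

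To show the sequence before genes that rose together by day 10, the 250 bases before the start were read from RefSeq (GRCm38.p6) for 5 of them: the BMP target Msx2, the ligands Wnt4, Wnt6 and Wnt10b, and the Wnt target Axin2. They lie at chr13:53472781-53473030 (minus strand), chr4:137277385-137277634 (plus), chr1:74771642-74771891 (plus), chr15:98778151-98778400 (minus) and chr11:108920099-108920348 (plus), each written 5′ to 3′ in the direction of its gene. Capitals mark matches, on either strand, to GACGC, the core that Foxn1 is known to bind, and to GGCGCC, a GC-rich element known to bind BMP Smads.
Msx2: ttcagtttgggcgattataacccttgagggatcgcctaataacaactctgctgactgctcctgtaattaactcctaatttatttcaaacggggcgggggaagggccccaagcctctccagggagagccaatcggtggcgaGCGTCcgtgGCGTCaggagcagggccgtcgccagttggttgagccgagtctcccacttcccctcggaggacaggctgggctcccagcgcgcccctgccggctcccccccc
Wnt4: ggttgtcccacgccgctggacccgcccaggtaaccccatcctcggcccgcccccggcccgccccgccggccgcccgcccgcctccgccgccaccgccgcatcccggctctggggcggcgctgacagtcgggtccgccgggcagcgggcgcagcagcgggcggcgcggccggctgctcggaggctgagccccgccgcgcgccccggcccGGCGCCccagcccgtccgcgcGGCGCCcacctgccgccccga
Wnt6: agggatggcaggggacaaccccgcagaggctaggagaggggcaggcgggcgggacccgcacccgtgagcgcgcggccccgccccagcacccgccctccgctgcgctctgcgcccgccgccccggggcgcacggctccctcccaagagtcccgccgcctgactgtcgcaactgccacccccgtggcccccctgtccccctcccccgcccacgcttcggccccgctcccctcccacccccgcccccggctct
Wnt10b: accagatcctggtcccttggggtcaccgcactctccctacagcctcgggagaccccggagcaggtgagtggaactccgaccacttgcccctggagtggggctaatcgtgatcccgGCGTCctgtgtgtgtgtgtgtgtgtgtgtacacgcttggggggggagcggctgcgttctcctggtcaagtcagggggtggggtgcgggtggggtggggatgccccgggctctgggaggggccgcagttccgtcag
Axin2: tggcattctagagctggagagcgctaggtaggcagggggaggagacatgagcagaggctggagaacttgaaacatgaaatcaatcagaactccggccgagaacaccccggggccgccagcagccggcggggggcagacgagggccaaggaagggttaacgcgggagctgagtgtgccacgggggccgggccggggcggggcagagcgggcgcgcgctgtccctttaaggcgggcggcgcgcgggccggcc
The window of Msx2 held 2 Foxn1 cores, 110 and 101 bases before the RefSeq start, that of Wnt10b held 1, 135 bases before it, and that of Wnt4 held 2 copies of GGCGCC, 42 and 21 bases before it. In GENCODE M21, Msx2 reaches to 53473074 and Wnt4 begins at 137277489. By that annotation the whole window of Msx2 and both GGCGCC copies of Wnt4 lie inside the gene, after its start. Windows were on hand for 24 of the 42 genes, and Bmpr1b and Wnt5b had several. A gene was counted if any of its windows matched, whereas the RefSeq shares are of single windows, so the units are unlike. The Foxn1 core was in windows of 9 of these 24 genes, against 22.6% of 32851 RefSeq windows of the same length, GGCGCC in 7, against 9.59%, and the TCF/LEF letters ATCAAAG in 1, Wnt5b, against 3.21%. Bmp4, Smad6, Fzd1, Dkk1, Wif1 and Nkd1 also rose by day 10, and their windows held none of these letters. By GENCODE M21 the window of Nkd1 (88527383 to 88527632) lies inside the gene, which begins at 88521354. Parts of the windows of Dkk1 and Wif1 do as well. Among the windows with matches, those of Bmpr1a, Bmpr1b, Bmpr2, Id2 and Id3 also lie inside the gene by that annotation. Of the genes with a Foxn1 core, only Msx2 and Wnt10b passed as higher at day 10 against MEF in the fit of all libraries. Of the genes with GGCGCC, only Wnt4 did. Whether the matches have a part in the rise was not tested. A match is a description of these letters and not a binding site.

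The first question was how these genes changed between MEF, day 2 and day 10. By day 10, 5 of 7 Wnt ligands, 3 of 4 BMP ligands, 4 of 5 Wnt targets and feedback inhibitors and 2 of 5 BMP targets had risen over MEF, together with the BMP antagonist Nog and the Wnt antagonists Dkk1 and Wif1. Notum, the Wnt-removing enzyme, stood at 126 CPM at day 10 against 0.0622 CPM in MEF, and Apcdd1 and Nkd1 rose 22.8- and 32.4-fold. At day 2 the ligands Bmp2 and Wnt10b had risen, and none of the 5 Wnt targets and feedback inhibitors passed as higher in the fit of all libraries, although Notum did without the Epcam-positive pair (log2 change 3.05, adjusted p = 0.0217 by edgeR) and by DESeq2 (adjusted p = 0.0169). Of the 42 genes, 19 rose and 2 fell at day 10 against MEF, where 9.42% of all tested genes rose and 6.58% fell (16% called). At day 2 against MEF, 2 rose and 3 fell (5.52% of all genes called, 2.87% higher and 2.65% lower), and at day 10 against day 2, 18 rose and 0 fell (12.6% of all genes called, 8.24% higher). In the last comparison 22 of the 42 had an unadjusted p under 0.05 by edgeR, as had 4303 of the 17004 genes tested. DESeq2 called 19 of the 42 higher and 2 lower there, and 2261 higher and 1414 lower of all genes. The 42 genes had a median log2 change of 1.72 at day 10 over MEF (1.73 with Bmp7 and Wif1 at their lower bounds), 0.26 at day 2 over MEF and 1.18 at day 10 over day 2, and all tested genes had 0, 0 and 0.02. Both day 2 and day 10 were set against the same 2 MEF libraries. In bulk samples, fewer cells that express a gene and less of its RNA per cell cannot be told apart.

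**Figure D1:**
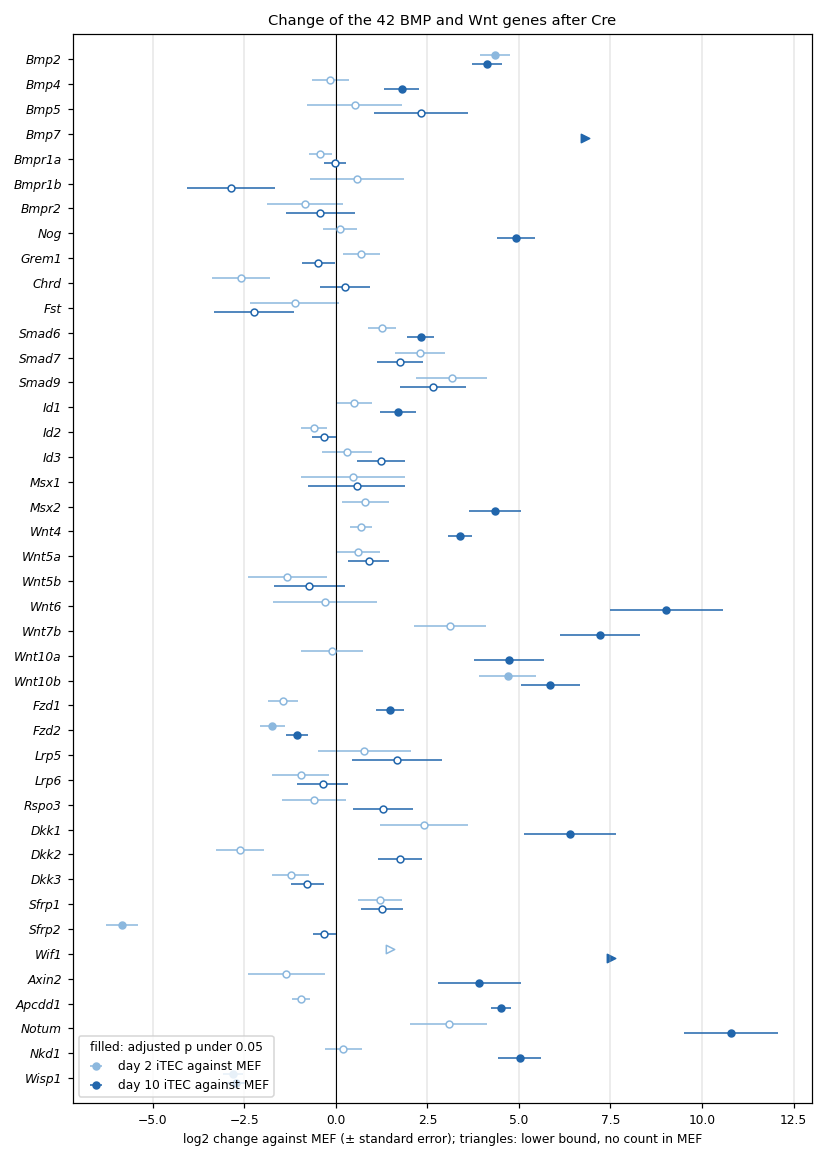
Log2 change against MEF (x axis, ± standard error from edgeR) of the 42 genes (y axis) for day 2 iTEC (light blue, n = 2) and day 10 iTEC (dark blue, n = 3); filled symbols passed an adjusted p of 0.05 and triangles are lower bounds for genes with no count in MEF. Wnt4, Wnt6, Wnt10a, Apcdd1, Nkd1 and Notum lie far to the right and pass at day 10, Bmp2 and Wnt10b at both times, and Wisp1 to the left at both.

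Among the BMP ligands, Bmp2 had 0.498 and 0.582 CPM in MEF, 10.9 and 11.1 CPM at day 2 and 9.58, 9.56 and 9.18 CPM at day 10. Both times lay far above MEF and close to each other. The log2 change was 4.35 ± 0.41 at day 2 (edgeR quasi-likelihood test, adjusted p = 0.000397) and 4.13 ± 0.4 at day 10 (adjusted p = 0.000186). Bmp4, the ligand known from the fetal thymus, had 29.8 and 20.4 CPM in MEF, 22.8 and 22.5 CPM at day 2 and 85.2, 85.4 and 91 CPM at day 10. Day 10 alone stood apart from MEF, and Bmp4 passed there by edgeR as higher. Bmp7, a ligand of the 60A class, had no count in MEF, 0 and 3 counts at day 2 and 388 counts summed over day 10 (3.2, 2.51 and 2.15 CPM). That was at least 111.1-fold higher at day 10 than in MEF, with 3 counts over the MEF group as the floor (adjusted p = 0.000407 by edgeR), and against day 2 the ratio was 120, with a 95% counting interval of 40.8 to 585. Bmp5 did not pass at either time in the fit of all libraries. It stood at 5.82 to 6.41 CPM at day 10, at 1.61 to 1.9 CPM at day 2 and at 1.06 to 1.38 CPM in MEF. In the fit without the Epcam-positive pair it passed as higher at day 10 against MEF.

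The BMP receptors did not follow the ligands. None of the 3 passed at day 2 or day 10. The type I receptor Bmpr1a averaged 330 ± 11.1 CPM at day 10 against 335 ± 133 CPM in MEF, and the type II receptor Bmpr2 averaged 421 ± 8.86 CPM against 564 ± 316 CPM (SD, n = 3 and n = 2). Bmpr1b, the other type I receptor, had 1.08, 0.948 and 1.19 CPM at day 10, against 7.85 and 7.72 CPM in MEF. These did not overlap, and Bmpr1b did not pass in the fit of all libraries but did, as lower, in a fit without the Epcam-positive pair.

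Of the 4 secreted BMP antagonists, Nog (noggin) rose. Nog had 1.2 and 0.582 CPM in MEF, 0.889 and 1.04 CPM at day 2 and 26.8, 24.4 and 30.5 CPM at day 10. The 2 groups without the rise overlapped and day 10 lay more than an order of magnitude above both. Its log2 change at day 10 was 4.92 ± 0.52 over MEF (adjusted p = 0.000281 by edgeR) and 4.82 ± 0.51 over day 2 (adjusted p = 0.000416). Chrd (chordin) had 2.78 and 1.08 CPM in MEF, 0.0907 and 0.546 CPM at day 2 and 2.37, 2.69 and 1.89 CPM at day 10. It rose between day 2 and day 10, by a log2 change of 2.84 ± 0.77 (adjusted p = 0.0378 by edgeR), and day 10 overlapped MEF. Grem1 (gremlin) and Fst (follistatin, which binds activins and also BMPs) did not pass against MEF at either time. Fst stood at 5.15 to 5.38 CPM at day 10 against 21.5 to 28.3 CPM in MEF, without overlap. It passed as lower there in the fit without the Epcam-positive pair.

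Smad6, an inhibitory Smad that BMP signals are known to induce, had 11.3 and 6.98 CPM in MEF, 20.3 and 23.4 CPM at day 2 and 46.7, 42.3 and 47.6 CPM at day 10. The 3 groups did not overlap, and Smad6 passed as higher at day 10 against MEF. Smad7, the other inhibitory Smad, which also restrains TGF-beta signals, had 130 and 120 CPM at day 2 and 85.3 to 85.7 CPM at day 10, against 29.6 and 21.4 CPM in MEF, and did not pass. Smad9, a receptor Smad, likewise stood at 16.4 to 19.8 CPM at day 2 and 12.2 to 13.4 CPM at day 10 against 1.8 to 2.27 CPM in MEF without passing. All 3 passed in both comparisons when the fit left out the Epcam-positive pair.

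The BMP targets divided. Msx2, a homeobox gene and the BMP target whose window is shown above, had 2.36 and 1.48 CPM in MEF, 3.57 and 3.16 CPM at day 2 and 39.6, 38.4 and 40.9 CPM at day 10. Its log2 change was 4.36 ± 0.71 over MEF (adjusted p = 0.00332 by edgeR) and 3.56 ± 0.68 over day 2 (adjusted p = 0.00827). Its relative Msx1 stayed between 0.259 and 0.805 CPM in these 7 libraries, with overlapping groups. Id1, an inhibitor of bHLH factors and a direct BMP target, had 27.3, 27.8 and 30.3 CPM at day 10, against 12.2 and 5.28 CPM in MEF, and passed as higher. Id2 and Id3, of the same family, did not pass; Id3 stood at 149 to 161 CPM at day 10 against 104 and 28.4 CPM in MEF, and Id2 at 45.1 to 55 CPM against 60.2 and 63.9 CPM.

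**Figure D2:**
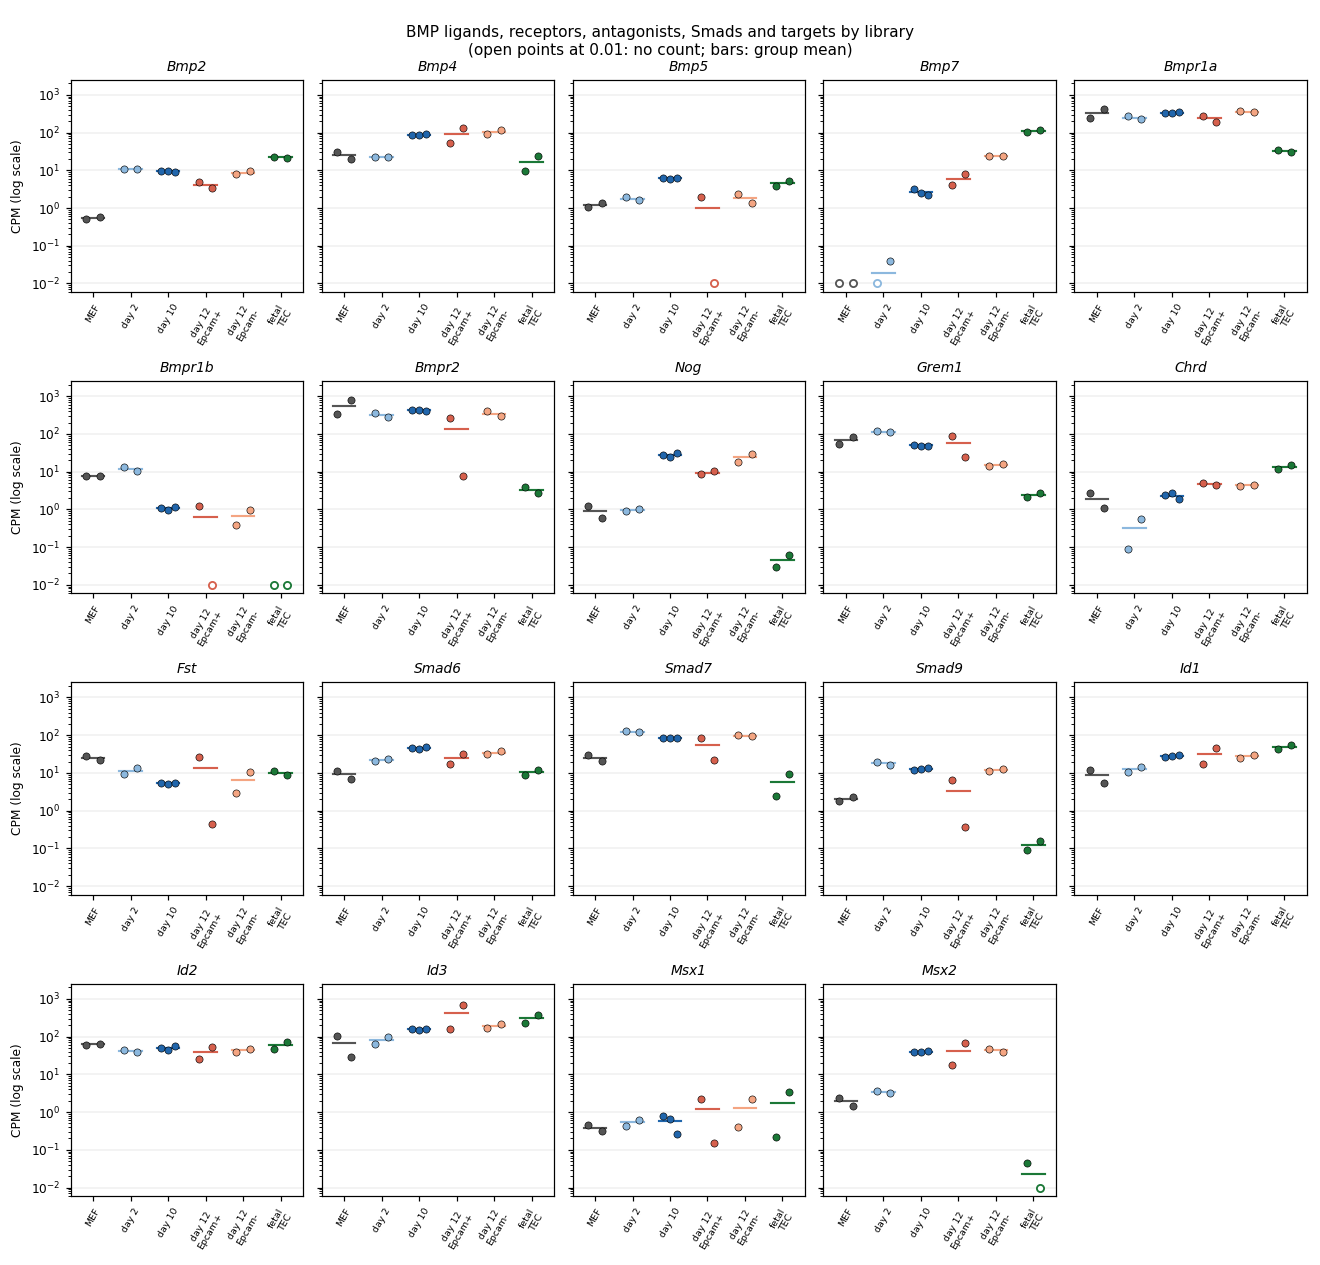
CPM on a log axis (y) in each library by group (x) for the 19 BMP genes; points are libraries, bars are group means and open points at 0.01 are libraries with no count. Bmp2 is above MEF in all iTEC groups, and Bmp4, Nog and Msx2 are above MEF in day 10 and day 12 iTEC. In fetal TEC, Bmp4 is at 9.3 and 24.4 CPM, Nog at 0.0306 and 0.0609 CPM and Msx2 at 0.0459 and 0 CPM. Bmp7 is highest in fetal TEC, at 103 and 114 CPM.

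Wnt ligands gave some of the largest log2 changes. Wnt6 had 15 counts summed over MEF (0.207 and 0 CPM), 0.0907 and 0.0909 CPM at day 2 and 57.2, 57.3 and 64.5 CPM at day 10. It was close to absent through day 2 and abundant at day 10, with a log2 change of 9.03 ± 1.55 over MEF (adjusted p = 0.00424 by edgeR) and 9.33 ± 1.57 over day 2 (adjusted p = 0.0045). Wnt10a lies 6193 bases beyond Wnt6 on chromosome 1, on the same strand (74791516 to 74804179, against 74771892 to 74785322 for Wnt6, GRCm38). Wnt10a had 1.82 and 0.501 CPM in MEF, 0.744 and 1.43 CPM at day 2 and 30.6, 28.8 and 33.7 CPM at day 10. Like its neighbour it rose between day 2 and day 10, by 4.83 ± 0.95 (adjusted p = 0.00964 by edgeR), and stood 4.73 ± 0.95 above MEF at day 10 (adjusted p = 0.0091).

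Wnt10b, a ligand of the same subfamily as Wnt10a but on chromosome 15 (98770712 to 98778150), had already risen at day 2. It had 0.332 and 0.341 CPM in MEF, 7.82 and 9.68 CPM at day 2 and 19.7, 21 and 18.3 CPM at day 10. Its log2 change was 4.69 ± 0.77 at day 2 (adjusted p = 0.00715 by edgeR) and 5.86 ± 0.8 at day 10 over MEF (adjusted p = 0.00123), and the step between day 2 and day 10 did not pass. Wnt4, the ligand best known in TEC, had 24.1 and 21.5 CPM in MEF, 37.1 and 37.3 CPM at day 2 and 241, 233 and 245 CPM at day 10. The 3 groups did not overlap, and the log2 change at day 10 was 3.39 ± 0.32 over MEF (adjusted p = 0.000173 by edgeR). Wnt7b had 6 counts summed over MEF and rose to 7.11, 8.05 and 5.92 CPM at day 10, against 0.0829 and 0 CPM in MEF, with 0.326 and 0.481 CPM at day 2 (log2 change at day 10 of 7.22 ± 1.09 over MEF and 4.11 ± 0.9 over day 2, adjusted p = 0.0022 and 0.0161 by edgeR). Wnt5a and Wnt5b, ligands known mainly for signals that do not use beta-catenin, did not pass at either time. Wnt5a stood at 287 to 300 CPM at day 10 against 149 to 166 CPM in MEF, and Wnt5b at 1.98 to 2.38 CPM against 1.48 to 5.68 CPM.

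The Frizzled receptors Fzd1 and Fzd2 moved apart. Fzd1 had 307 and 187 CPM in MEF, 88.2 and 93.7 CPM at day 2 and 694, 677 and 686 CPM at day 10. The 3 groups did not overlap, with day 2 lowest and day 10 highest, and the difference between these times was a log2 change of 2.91 ± 0.41 (adjusted p = 0.00178 by edgeR), with day 10 also passing as higher than MEF. Fzd2 had 183 and 91.5 CPM in MEF, 37.7 and 45.1 CPM at day 2 and 67, 66.4 and 64.1 CPM at day 10. It fell by 1.73 ± 0.34 on the log2 scale at day 2 (adjusted p = 0.0184 by edgeR) and passed as lower than MEF at day 10 too. The co-receptors Lrp5 and Lrp6 did not pass. Lrp5 stood at 302 to 307 CPM at day 10 against 95.1 to 96.3 CPM in MEF. Rspo3, an R-spondin that prolongs Wnt signals by sparing the receptors, stood at 27.6 to 30.9 CPM against 8.58 to 15.1 CPM, also without passing. In the fit without the Epcam-positive pair, Lrp5 passed as higher at day 10 against MEF and Lrp6 as lower at day 2.

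Secreted Wnt antagonists went different ways. Dkk1, which blocks Lrp5 and Lrp6, had 0.0415 and 0 CPM in MEF, 0.145 and 0.117 CPM at day 2 and 2.34, 1.87 and 2.04 CPM at day 10. The 303 counts over day 10, against 3 over MEF, gave a ratio of 86.7 with a 95% counting interval of 29.4 to 423 (adjusted p = 0.00829 by edgeR), and day 10 stood 3.98 ± 1.06 above day 2 on the log2 scale (adjusted p = 0.0368). Wif1, which binds Wnt proteins, had no count in MEF, 0 and 0.117 CPM at day 2 and 5.06, 3.84 and 4.11 CPM at day 10, at least 182.1-fold higher at day 10 than in MEF (adjusted p = 0.0112 by edgeR), with a log2 change of 6.09 ± 1.54 over day 2 (adjusted p = 0.0344). Sfrp2, a secreted Frizzled-like protein, had 10 and 10.7 CPM in MEF, 0.145 and 0.208 CPM at day 2 and 8.02, 9.22 and 7.78 CPM at day 10. It fell at day 2, by 5.84 ± 0.43 on the log2 scale (adjusted p = 0.000146 by edgeR), and at day 10 stood 5.54 ± 0.42 above day 2 (adjusted p = 9.23e-05). Dkk2 had 18.5 and 51.4 CPM in MEF, 6.02 and 5.38 CPM at day 2 and 132, 114 and 110 CPM at day 10, and day 10 was above day 2 by 4.38 ± 0.69 (adjusted p = 0.00336 by edgeR). Sfrp1 and Dkk3 did not pass in the fit of all libraries. Sfrp1 stood at 918 to 936 CPM at day 10 against 287 to 487 CPM in MEF and Dkk3 at 113 to 120 CPM against 175 to 225 CPM. In the fit without the Epcam-positive pair, Sfrp1 passed as higher than MEF at both times. Dkk2 passed there as lower than MEF at day 2 and higher at day 10.

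**Figure D3:**
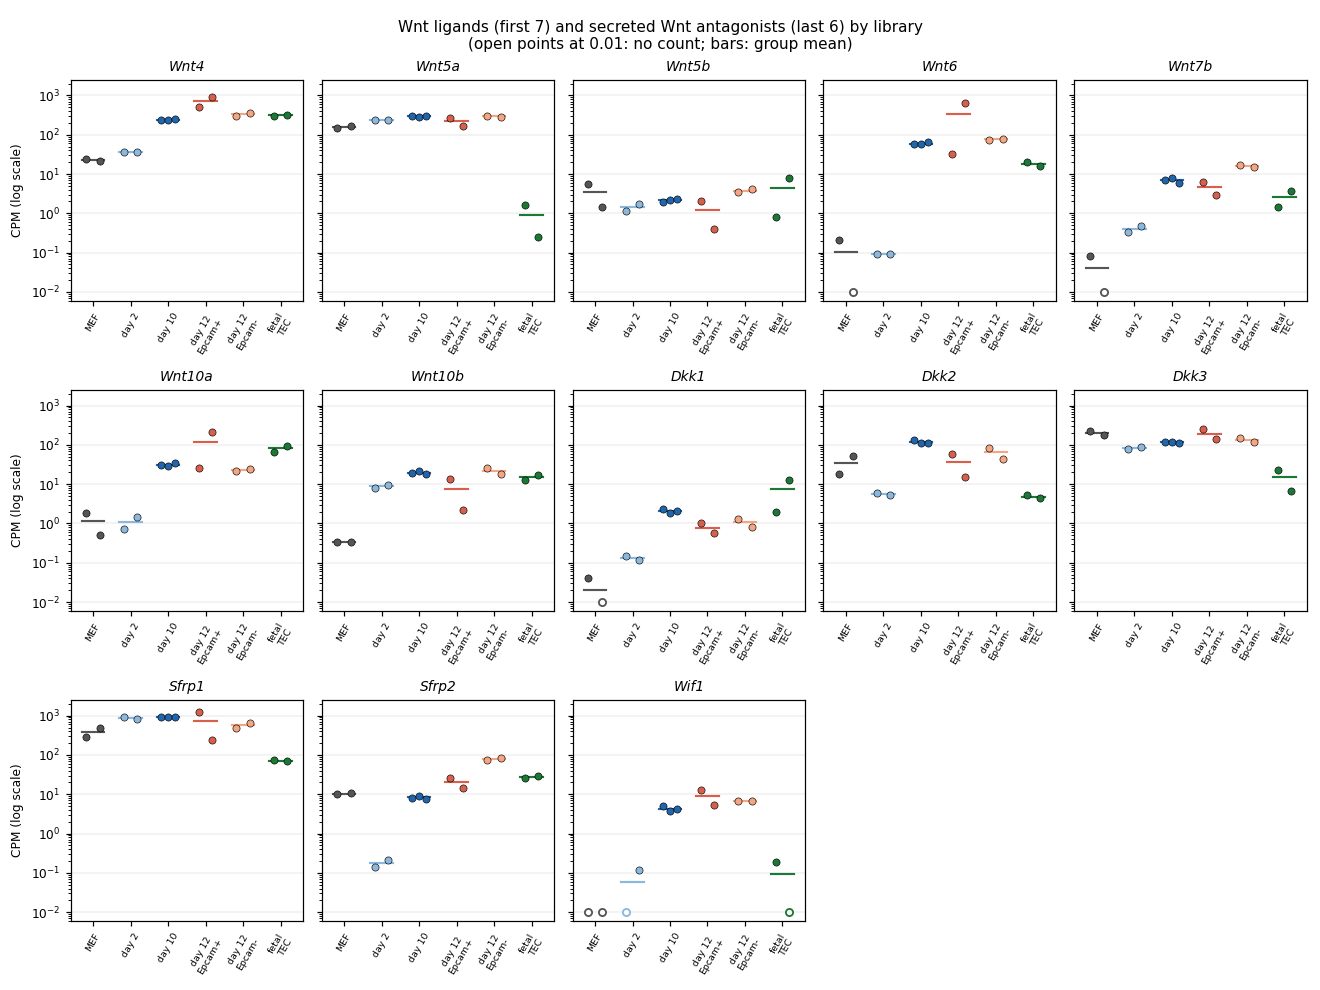
CPM on a log axis (y) in each library by group (x) for 7 Wnt ligands and 6 secreted antagonists; points are libraries, bars are group means and open points at 0.01 are libraries with no count. Wnt6 and Wnt10a are low until day 2 and at 57.2 to 64.5 and 28.8 to 33.7 CPM at day 10, whereas Wnt10b is already raised at day 2.

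The targets and feedback inhibitors of Wnt signals were the role in which every member passed at day 10 against MEF: 4 rose and Wisp1 fell. Axin2 (chromosome 11, 108920349 to 108950783), a scaffold of the complex that degrades beta-catenin and the most widely used Wnt target, had 8.89 and 6.9 CPM in MEF, 3.08 and 3.09 CPM at day 2 and 119, 115 and 124 CPM at day 10. It was lowest at day 2 and rose by 5.27 ± 1.22 between day 2 and day 10 (adjusted p = 0.0199 by edgeR), standing 3.92 ± 1.13 above MEF (adjusted p = 0.0428). Apcdd1 (chromosome 18, 62922231 to 62961179), a membrane inhibitor of Wnt and BMP signals, averaged 14.9 ± 2.05 CPM in MEF (SD, n = 2) and had 7.13 and 8.33 CPM at day 2 and 360, 335 and 327 CPM at day 10. Day 2 was again the lowest of the 3 groups, though neither gene passed there against MEF, and day 10 stood 5.46 ± 0.29 above day 2 (adjusted p = 2.81e-05 by edgeR), and day 10 stood 4.51 ± 0.28 above MEF (adjusted p = 2.4e-05).

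Notum (chromosome 11, 120653788 to 120661175), an enzyme that inactivates Wnt proteins by removing their lipid, had 9 counts summed over MEF (0.124 and 0 CPM), 0.381 and 0.805 CPM at day 2 and 129, 126 and 122 CPM at day 10. Its log2 change at day 10 was 10.8 ± 1.28 over MEF (adjusted p = 0.000598 by edgeR) and 7.71 ± 1.1 over day 2 (adjusted p = 0.00192). Nkd1 (chromosome 8, 88521354 to 88594884), which binds Dishevelled, had 13 and 8.6 CPM in MEF, 13.2 and 11.8 CPM at day 2 and 356, 342 and 355 CPM at day 10, a log2 change of 5.02 ± 0.58 over MEF and 4.81 ± 0.58 over day 2 (adjusted p = 0.000519 and 0.00079 by edgeR). MEF and day 2 overlapped for Nkd1. Wisp1 (chromosome 15, 66891320 to 66923201), a matrix protein of the CCN family found as a Wnt1-induced gene, went the other way, with 760 and 1100 CPM in MEF, 128 and 138 CPM at day 2 and 141, 140 and 143 CPM at day 10. It fell by 2.81 ± 0.28 at day 2 and by 2.72 ± 0.24 at day 10 on the log2 scale (adjusted p = 0.00049 and 0.000131 by edgeR), and the levels at both times were close.

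**Figure D4:**
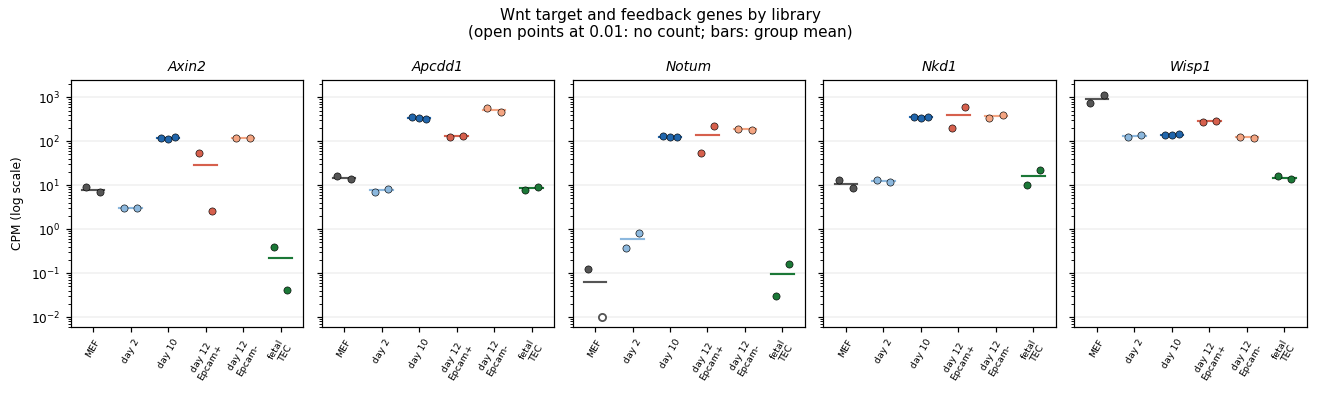
CPM on a log axis (y) in each library by group (x) for 5 Wnt targets and feedback inhibitors; points are libraries, bars are group means and open points at 0.01 are libraries with no count. Axin2, Apcdd1, Notum and Nkd1 are high in day 10 and Epcam-negative iTEC and low in fetal TEC, and Wisp1 is highest in MEF.

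Groups did not overlap for 37 of the 42 genes at day 10 against MEF (68.3% of all tested genes), for 29 at day 2 against MEF (57.9%) and for 40 at day 10 against day 2 (74.7%). Of the 21 calls at day 10 against MEF, 12 held whichever of the 13 libraries was left out: Bmp2, Bmp7, Nog, Smad6, Wnt4, Wnt6, Wnt7b, Wnt10b, Apcdd1, Notum, Nkd1 and Wisp1. Bmp4 and Axin2 were lost without any single MEF, day 2, day 10 or Epcam-negative library (adjusted p up to 0.239 and 0.266). Id1 and Fzd1 were lost without any of these except MEF replicate 1 (up to 0.26 and 0.219), and Fzd2 without any of them except MEF replicate 2, and without either fetal TEC library (up to 0.329). Without MEF replicate 2, Msx2, Wnt10a and Dkk1 were lost (adjusted p = 0.0513, 0.0881 and 0.0611), as was Wif1 without either MEF library (up to 0.0786). Without MEF replicate 1 the log2 change was 14.82 for Wnt6, 11.74 for Wnt7b, 15.9 for Notum, 9.99 for Dkk1, 5.92 for Wnt10a, 5.52 for Nog and 2.41 for Id1, and without MEF replicate 2 it was 8.15, 6.37, 9.96, 5.58 and 4.08 for the first 5. At day 2, Wnt10b was lost without either MEF library (up to 0.0831) and Fzd2 without MEF replicate 1, where the fall was 1.14, or either day 2 library (up to 0.197). At day 10 against day 2, 8 of 18 calls held in all 13 runs (Bmp7, Nog, Wnt4, Fzd1, Sfrp2, Apcdd1, Notum and Nkd1), and 8 and 9 genes were called without day 2 replicate 1 and 2. Bmp4, Dkk1 and Wif1 were lost there without any single day 2, day 10 or Epcam-negative library (adjusted p up to 0.21, 0.271 and 0.198), and Chrd without any of these except day 2 replicate 2 (up to 0.23). Msx2, Wnt6, Wnt10a and Dkk2 were lost without either day 2 library (up to 0.106, 0.0725, 0.126 and 0.0552), as were Wnt7b, also lost without day 10 replicate 2, and Axin2, also lost without day 10 replicate 3 (up to 0.183 for both). Without day 2 replicate 1 and 2 that log2 change was 6 and 10.32 for Bmp7, 2.08 and 4.64 for Chrd and 5.19 and 11.05 for Wif1, and for Notum it was 8.36 without replicate 2. The fit without the Epcam-positive pair called 17 of the 42 genes at day 2 against MEF, and 3861 of all genes. The 12 that it added were Smad6, Smad7, Smad9, Wnt4, Wnt7b, Sfrp1 and Notum as higher and Chrd, Fzd1, Lrp6, Dkk2 and Apcdd1 as lower. At day 10 against MEF the same fit called 29 of the 42 genes, and 6797 of all genes. It added Bmp5, Smad7, Smad9, Lrp5, Dkk2 and Sfrp1 as higher and Bmpr1b and Fst as lower. A fit of MEF and day 10 alone called 32 of the 42 genes, and 7959 of all genes.

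Markers of other cells moved with Cre as well. The sum of 20 macrophage genes was 3770 to 3910 CPM in MEF, 15.7 to 18.3 CPM at day 2 and 69.2 to 77.2 CPM at day 10, with 9 of them at 0 at day 2 and 11 at day 10, among them Adgre1 and C1qa at both times. The sum of 20 fibroblast genes was 81600 to 85300 CPM in MEF, 19400 to 19900 CPM at day 2 and 32500 to 34600 CPM at day 10, none at 0. Endothelial genes summed to 9.8 to 40.3 CPM in these 7 libraries (14 genes, Sox17 and Cldn5 at 0). The 16 lymphocyte genes summed to 640 to 1050 CPM in MEF, 199 to 217 CPM at day 2 and 83.5 to 92.6 CPM at day 10, with Cd3e at 0. In MEF 12 of these 16 had no count, so their sum does not show lymphocytes there. Thy1 stood at 606 and 1110 CPM in MEF, at 198 and 177 CPM at day 2 and at 61.1 to 69 CPM at day 10. What part the makeup of the libraries had in the levels of the 42 genes was not tested.

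The sort at day 12 asked whether cells that had gained Epcam differed from those that had not. The Y-linked genes summed to 240 and 46.3 CPM in the Epcam-positive libraries, against 0.0164 and 0 CPM in the Epcam-negative ones, and Xist stood at 1.34 and 0 CPM against 1050 and 795 CPM, so sort and sex of the source cannot be told apart. Of the 42 genes, Apcdd1 alone passed: it was lower in Epcam-positive cells, where 0.259% of all tested genes were called in either direction and 0.0176% as lower. Apcdd1 had 128 and 130 CPM in Epcam-positive cells, against 557 and 472 CPM in Epcam-negative cells. It was lower by 2 ± 0.26 on the log2 scale (adjusted p = 0.0224 by edgeR). Groups did not overlap for 21 of the 42 genes (45.4% of all genes), and 11 had an unadjusted p under 0.05, as did 3261 of the 17004 genes tested. The median log2 difference was -0.42 over the 42 genes and 0 over all tested genes.

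The 2 Epcam-positive libraries differed widely from each other, and so did their Wnt and BMP genes. Epcam-positive replicate 1 had 31.4 CPM of Wnt6 and 25.1 CPM of Wnt10a, and replicate 2 had 628 and 213 CPM, against 73.4 and 79.9 CPM of Wnt6 and 21.4 and 23.8 CPM of Wnt10a in Epcam-negative cells. Wnt4 was above Epcam-negative cells in both, at 506 and 925 CPM against 299 and 357 CPM, without passing. Replicate 2 was the lower one for the receptors Bmpr2 (261 and 7.83 CPM), Lrp5 (407 and 6.39 CPM) and Lrp6 (161 and 13.7 CPM), whose longest transcripts have 12899, 8893 and 9368 bases, and for Axin2 (55.3 and 2.59 CPM, 4260 bases). Replicate 2 was the higher one for Wnt6 and Wnt10a, with 2071 and 2468 bases, and for the BMP target Id3 (158 and 672 CPM, 1278 bases). Other genes went against that order of lengths: Fst (26.6 and 0.436 CPM, 2921 bases) and Wnt10b (13.2 and 2.16 CPM, 2709 bases) were lower in replicate 2, Nkd1 (200 and 609 CPM, 4081 bases) was higher, and Apcdd1 (10879 bases) was alike in both. Epcam-negative cells held between 291 and 397 CPM of Bmpr2, 400 and 446 CPM of Lrp5, 181 and 200 CPM of Lrp6, 117 and 121 CPM of Axin2 and 171 and 210 CPM of Id3. Fibroblast genes summed to 64600 and 5620 CPM in the Epcam-positive libraries and to 30900 and 27500 CPM in Epcam-negative ones, and 20 TEC genes to 5920 and 32000 CPM against 6070 and 6800 CPM. The 20 macrophage genes summed to 329 and 232 CPM in Epcam-positive libraries, none at 0 in the pair, against 60.1 and 78 CPM in Epcam-negative ones with 9 at 0.

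The call of Apcdd1 was lost without MEF replicate 1 or any single day 2, day 10 or Epcam-negative library (adjusted p up to 0.347) and turned to a log2 change of 0.29 (adjusted p = 0.837) when the trend of counts over transcript length was removed from each library. Without Epcam-positive replicate 1, 26 of the 42 genes and 9545 of all genes were called, and without replicate 2, 5 of the 42 and 500 of all genes were.

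Epcam-negative cells of day 12 were also set against MEF, a comparison in which the libraries of both groups carried Xist and almost no Y-linked counts. Of the 42 genes, 17 rose and 2 fell (11.9% of all tested genes were called, 7.37% higher and 4.53% lower), and the median log2 change was 1.83 against 0 over all tested genes. Notum had 191 and 181 CPM in Epcam-negative cells, against 0.124 and 0 CPM in MEF, a log2 change of 11.36 ± 1.32 (adjusted p = 0.000646 by edgeR). Apcdd1 had 557 and 472 CPM, against a mean of 14.9 CPM in MEF, a log2 change of 5.11 ± 0.29 (adjusted p = 2.76e-05). Nkd1 stood 5.08 ± 0.6 above MEF (adjusted p = 0.000698), Nog 4.76 ± 0.52 (adjusted p = 0.000462), Wnt4 3.84 ± 0.34 (adjusted p = 0.000158) and Wnt6 9.39 ± 1.58 (adjusted p = 0.00492). Bmp7 had 23.9 and 23.3 CPM in Epcam-negative cells and no count in MEF, at least 959-fold higher (adjusted p = 0.000169 by edgeR). Sfrp2 had 75.4 and 85.1 CPM in Epcam-negative cells, against 10 and 10.7 CPM in MEF, a rise of 2.96 ± 0.37 (adjusted p = 0.000903 by edgeR). The ligands Wnt7b, Wnt10b, Wnt10a and Bmp2 stood 8.4 ± 1.16, 6.03 ± 0.82, 4.27 ± 0.95 and 3.98 ± 0.41 above MEF and the BMP target Msx2 4.47 ± 0.73 (adjusted p = 0.00161, 0.00151, 0.0191, 0.000306 and 0.00421 by edgeR). The antagonist Dkk1 had a ratio of 41.6 with a 95% counting interval of 14 to 204, and Wif1 was at least 278.3-fold higher (adjusted p = 0.0213 and 0.0124 by edgeR).

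Macrophage genes summed to 60.1 and 78 CPM in Epcam-negative cells (9 of 20 at 0, Adgre1 and C1qa among them), against 3910 and 3770 CPM in MEF, and fibroblast genes to 30900 and 27500 CPM, against 81600 and 85300 CPM in MEF. Lymphocyte genes summed to 50.8 and 66.7 CPM against 640 and 1050 CPM, though 12 of the 16 had no count in MEF. Thy1 stood at 606 and 1110 CPM in MEF and at 18.6 and 28.5 CPM in Epcam-negative cells. The sum therefore does not show lymphocytes in MEF. The part of the makeup of the libraries in the changes was not tested. The genes that fell were Wisp1, with 126 and 118 CPM in Epcam-negative cells against 760 and 1100 CPM in MEF (a fall of 2.93 ± 0.28 on the log2 scale, adjusted p = 0.000237 by edgeR), and Grem1, with 13.7 and 15.9 CPM against 54.6 and 84.6 CPM. Axin2 had 121 and 117 CPM, close to its day 10 level, and did not pass against MEF in the fit of all libraries, though it did without the Epcam-positive pair. Groups did not overlap for 35 of the 42 genes (69.8% of all genes). Of the 19 calls, 12 held whichever library was left out, and 12 genes were called without MEF replicate 2. Grem1 was lost without MEF replicate 2 or either Epcam-negative library (adjusted p up to 0.168), and the log2 change without MEF replicate 1 was 16.47 for Notum, 15.19 for Wnt6 and 5.36 for Nog, with 10.52 for Notum and 8.52 for Wnt6 without MEF replicate 2. The same runs gave 12.93 and 7.55 for Wnt7b, 5.47 and 3.63 for Wnt10a and 9.02 and 4.62 for Dkk1. Wnt10a and Dkk1 were lost in the same 3 runs as Grem1 (up to 0.146 and 0.122), Smad6 without MEF replicate 2 or Epcam-negative replicate 2 (up to 0.101), Msx2 without MEF replicate 2 (0.063), Wif1 without either MEF library (up to 0.0891) and Bmp4 without any single MEF, day 2, day 10 or Epcam-negative library (up to 0.22).

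Day 10 iTEC were then compared with the fetal TEC that the programming aims at. Of the 42 genes, 24 were higher in day 10 iTEC and 5 lower, where 27.6% of all tested genes were higher and 31.7% lower (59.3% called). All 5 Wnt targets and feedback inhibitors, all 3 BMP receptors, all 3 Smads and 3 of 4 Wnt receptors were higher in day 10 iTEC. The lower ones were Bmp2, Bmp7, Chrd, Fzd2 and Sfrp2. Of the 7 Wnt ligands, Wnt5a alone passed. The median log2 difference of the 42 genes was 2.68, and that of all tested genes was -0.1. Groups did not overlap for 38 of the 42 genes (83.6% of all genes).

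Fetal TEC were low in Wnt targets. Axin2 had 119, 115 and 124 CPM in day 10 iTEC, against 0.398 and 0.0406 CPM in fetal TEC, a log2 difference of 9.03 ± 1.47 (adjusted p = 0.00112 by edgeR). Notum had 129, 126 and 122 CPM in day 10 iTEC, against 0.0306 and 0.162 CPM in fetal TEC (10.39 ± 1.26, adjusted p = 0.00026). Apcdd1 and Nkd1 were higher in day 10 iTEC by 5.31 ± 0.29 (adjusted p = 7.28e-06) and 4.46 ± 0.57 (adjusted p = 0.000331), with 7.89 and 9.25 CPM of Apcdd1 and 10.2 and 21.7 CPM of Nkd1 in fetal TEC. Every day 10 library lay above every fetal TEC library for these genes. Among BMP genes, Msx2 had 39.6, 38.4 and 40.9 CPM in day 10 iTEC, against 3 counts over both fetal TEC libraries, a ratio of 1510 with a 95% counting interval of 518 to 7340. Nog had 26.8, 24.4 and 30.5 CPM in day 10 iTEC and 5 counts summed over fetal TEC, a log2 difference of 9.19 ± 0.66 (adjusted p = 1.63e-05 by edgeR).

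Most Wnt ligands did not pass against fetal TEC. Wnt4 averaged 240 ± 5.91 CPM in day 10 iTEC and 309 ± 3.24 CPM in fetal TEC, Wnt6 59.6 ± 4.18 and 18.1 ± 2.46 CPM, Wnt10a 31 ± 2.5 and 80.8 ± 21.8 CPM, and Wnt10b 19.7 ± 1.35 and 14.9 ± 3.48 CPM (SD, n = 3 and n = 2), and none of these passed. A difference that misses the threshold does not show that the levels are alike, and without the Epcam-positive pair Wnt6 passed as higher and Wnt4, Wnt10a and Dkk1 as lower in day 10 iTEC. Wnt5a had 300, 287 and 294 CPM in day 10 iTEC, against 1.62 and 0.243 CPM in fetal TEC (8.28 ± 0.82, adjusted p = 9.51e-05 by edgeR). Bmp7 had 3.2, 2.51 and 2.15 CPM in day 10 iTEC, against 103 and 114 CPM in fetal TEC. It was lower by 5.37 ± 0.54 on the log2 scale (adjusted p = 0.000165 by edgeR), the largest difference among the 5 genes that were lower in day 10 iTEC. Bmp2 had 9.58, 9.56 and 9.18 CPM in day 10 iTEC, against 23.1 and 21.6 CPM in fetal TEC, and Chrd 2.37, 2.69 and 1.89 CPM against 12 and 15 CPM, and both passed as lower in day 10 iTEC.

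All the receptors and Smads except Fzd2 were higher in day 10 iTEC than in fetal TEC. Bmpr2 had 432, 417 and 416 CPM in day 10 iTEC, against 3.91 and 2.72 CPM in fetal TEC (6.99 ± 1.33, adjusted p = 0.00235 by edgeR). Bmpr1b had 153 counts over day 10 iTEC and none in fetal TEC, at least 41.07-fold higher. Lrp5 had 307, 307 and 302 CPM in day 10 iTEC, against 0.245 and 1.97 CPM in fetal TEC (8.12 ± 1.71, adjusted p = 0.00376), and Fzd1 stood 5.64 ± 0.47 above fetal TEC (adjusted p = 4.35e-05). Smad9 was higher in day 10 iTEC by 6.64 ± 1.15 (adjusted p = 0.00152), Wif1 by 5.48 ± 1.49 (adjusted p = 0.0133), Dkk2 by 4.62 ± 0.7 (adjusted p = 0.000809) and Rspo3 by 4.4 ± 0.98 (adjusted p = 0.00482). The targets Id1, Id2 and Id3 did not pass, with 42.9 to 53.9 CPM of Id1 in fetal TEC.

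Transcript length moved with this comparison. Of the 21 genes with the longer transcripts (median of the 42, 3609 bases), 16 were higher in day 10 iTEC and 3 lower, with a median log2 difference of 4.35. Of the 21 with the shorter ones, 8 were higher and 2 lower, with a median of 0.41. Across genes, the rank correlation of the log2 difference with length was 0.356 over 16831 tested genes and 0.372 over the 42, and all these points share the same 5 libraries. With the trend over length removed from each library, 27 of the 29 calls were kept, 24 higher and 4 lower genes were called in all, and Lrp6 turned to -0.15 (adjusted p = 0.665).

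**Figure D5:**
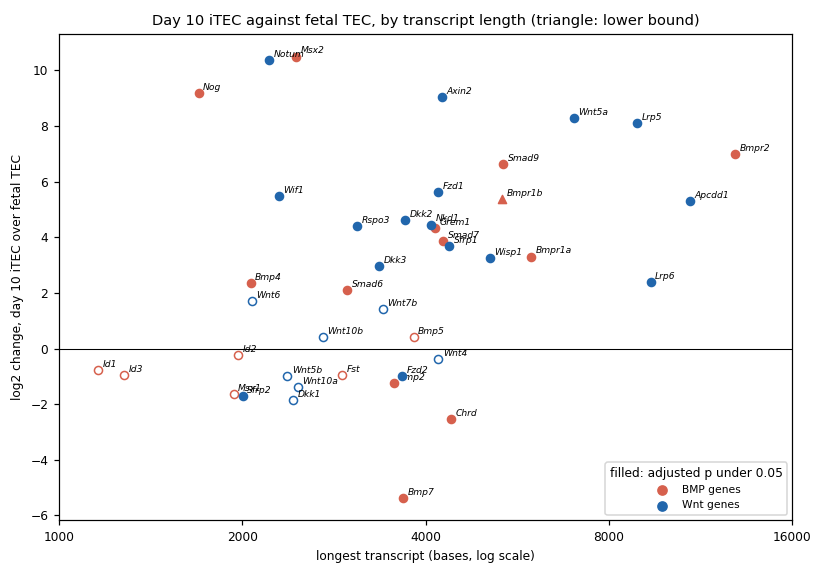
Log2 change of day 10 iTEC over fetal TEC (y axis, edgeR) by length of the longest transcript in bases (x axis, log scale) for the 42 genes, with BMP genes in red and Wnt genes in blue; filled symbols passed an adjusted p of 0.05 and the triangle is a lower bound. The 21 genes with the longer transcripts have a median of 4.35 and the 21 with the shorter ones a median of 0.41.

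Without 1 library, 27 of the 29 calls against fetal TEC held in all 13 runs. Lrp6 was lost without either fetal TEC library (adjusted p up to 0.127), and Fzd2 without any day 10 library or fetal TEC replicate 2 (up to 0.0735). Without fetal TEC replicate 1 and 2 the log2 difference was 14.26 and 9.7 for Msx2, 9.59 and 11.92 for Notum, 11.46 and 8.23 for Axin2, 10.23 and 7.51 for Wnt5a, 7.29 and 10.28 for Lrp5, 11.07 and 4.56 for Wif1, 7.46 and 3.5 for Rspo3, 3.22 and 5.12 for Smad7 and 4.1 and 2.37 for Dkk3. For Nkd1 it was 5.11 and for Bmp4 3.24 without replicate 2. Macrophage genes summed to 69.2 to 77.2 CPM in day 10 iTEC and to 988 to 1040 CPM in fetal TEC, endothelial genes to 32.3 to 40.3 and to 127 to 210 CPM, lymphocyte genes to 83.5 to 92.6 and to 551 to 1470 CPM, and fibroblast genes to 32500 to 34600 and to 2640 to 4940 CPM. The 18 epithelial genes summed to 5080 to 5390 CPM in day 10 iTEC and to 18000 to 23000 CPM in fetal TEC, and the TEC genes to 6830 to 7390 and to 43800 to 52800 CPM. What part the makeup of the libraries had in the differences was not tested.

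Further genes of both pathways, 37 tested of 38 for BMP and 52 tested of 55 for Wnt, came from lists of pathway genes outside the 42. At day 10 against MEF, 8 of the further BMP genes rose and 3 fell, and 18 of the further Wnt genes rose and 4 fell, which is 29.7% and 42.3% of the lists, where 16% of all tested genes were called. Dlx3, a homeobox gene known as a BMP target in skin, averaged 48.4 ± 2.25 CPM at day 10, against 0.181 ± 0.0571 CPM in MEF (SD, n = 3 and n = 2; log2 change 8.03 ± 0.49, adjusted p = 2.4e-05 by edgeR). It had also risen at day 2, to 5.28 ± 1.07 CPM (log2 change 4.83 ± 0.43, adjusted p = 0.000293 by edgeR, n = 2 in both groups). Id4, Gdf10 (a BMP-like ligand) and Bambi (a decoy receptor induced by BMP and Wnt signals) rose at day 10 by 4.22 ± 0.34, 5.25 ± 0.77 and 3.8 ± 0.58. Of the Wnt genes, Tnfrsf19, a Wnt-responsive receptor also called Troy, averaged 173 ± 4.66 CPM at day 10 against 1.37 ± 0.0705 CPM in MEF (log2 change 6.98 ± 0.52, adjusted p = 5.74e-05 by edgeR). The transcription factor Tcf7, which works with beta-catenin, rose by 4.21 ± 0.54 and the secreted antagonist Sfrp4 by 4.33 ± 0.56, while Wisp2, of the same family as Wisp1, fell by 2.55 ± 0.36.

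At day 2 against MEF, 1 further BMP gene rose and 3 fell (10.8% of the list called), and 4 further Wnt genes of 52 tested rose and 2 fell, where 5.52% of all tested genes were called. Lef1, the partner of beta-catenin, averaged 6.85 ± 1.77 CPM at day 2 against 0.897 ± 0.291 CPM in MEF (SD, n = 2 each; log2 change 2.93 ± 0.56, adjusted p = 0.0152 by edgeR). Sp5, a direct Wnt target, had 36 counts over day 2 and none in MEF (adjusted p = 0.0304 by edgeR). Lgr5, the R-spondin receptor, had 31 counts over day 2 against 8451 in MEF (log2 change -8.41 ± 1.76, adjusted p = 0.0235 by edgeR), and Ror1, a Wnt5a receptor, fell by 2.35 ± 0.36 (adjusted p = 0.00494). In Epcam-negative cells against MEF, 9 further BMP genes rose and 2 fell (29.7% of the list), and 16 further Wnt genes rose and 3 fell (36.5%), where 11.9% of all genes were called. At day 10 against day 2, 11 further BMP genes rose and 1 fell (32.4% of the list), and 15 further Wnt genes rose and 1 fell (30.8%), where 12.6% of all genes were called. The sort by Epcam gave 0 calls among both lists, with 4 and 7 genes at an unadjusted p under 0.05 by edgeR, as had 3261 of the 17004 genes tested. DESeq2 called 1 higher and 3 lower of the BMP list and 3 higher and 3 lower of the Wnt list. Of all genes it called 1523 higher and 240 lower. Against fetal TEC, 18 further BMP genes were higher in day 10 iTEC and 4 lower (59.5% of the list), and 25 further Wnt genes were higher and 10 lower (67.3%), where 59.3% of all genes were called, so that the share of BMP genes was near that of all genes. Smad1 and Hey1 were lower in day 10 iTEC by 2.57 ± 0.23 and 3.01 ± 0.32 on the log2 scale (adjusted p = 5.66e-05 and 0.000118 by edgeR). Crim1 and Id4 were higher by 2.8 ± 0.27 and 3.13 ± 0.32 (adjusted p = 8.17e-05 and 0.000109 by edgeR). Kremen2, a Dkk1 receptor, averaged 0.115 ± 0.056 CPM in day 10 iTEC against 193 ± 30.9 CPM in fetal TEC (SD, n = 3 and n = 2; log2 difference -10.66 ± 0.87, adjusted p = 0.00011 by edgeR).

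Some of the 42 genes share sequence with neighbours. Exons of Bmp4, Bmp5, Bmpr1a, Chrd, Fst, Wnt5a, Wnt7b, Rspo3, Sfrp2, Axin2 and Notum overlap exons of a gene on the other strand in GENCODE M21, such as Gm11670 for Axin2 and Notumos for Notum. No source used here states whether counting was stranded, so reads of these pairs cannot be told apart. None of the 42 overlaps exons of another gene on its own strand.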

How the data were processed

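RNA of 13 libraries in 6 groups was sequenced. The authors deposited a table of whole-number read counts per gene symbol. Per the submitters' processing notes, which give neither versions nor order, FastQC, Trimmomatic, HISAT2, SAMtools, StringTie and DESeq2 were used with the mouse build mm10. How reads shared by genes were counted is not stated, so near-identical genes could share reads. MEF values come from the table's No_Cre columns.

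Counts were tested with edgeR 4.0.16 (R 4.3.3, limma 3.58.1): TMM scaling, filterByExpr by group and the quasi-likelihood F test, fitted once and robustly on all 13 libraries (common dispersion 0.296), with two-sided p-values adjusted by Benjamini-Hochberg over 17004 genes and called below 0.05. Of the other symbols, 4044 had no count in any library. A fold against a group at 0 was taken against 3 counts over that group, and a ratio against 3 counts or fewer has a 95% counting interval. Sums of marker lists were scaled by library size alone. Python 3.11.15, numpy 2.4.6, pandas 2.3.3 and matplotlib 3.10.9 drew figures and read annotations. Positions are from GENCODE M21 (GRCm38), transcript lengths from the same annotation (98.3% of symbols matched) and promoters from RefSeq (GRCm38.p6). No pair of libraries agreed within sampling noise.

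Log2 changes with standard errors are given only for genes that passed and were among the 16 with the largest change in that comparison. Up to 4 further pathway genes per list and comparison are named by the smallest p. The 42 genes and all lists were chosen with earlier results of these data known. Alternatives were other size factors, library size alone, no filter, the DESeq2 1.42.0 Wald test, fits of the compared groups or without the Epcam-positive pair, a replicate block, leaving out each library and, added after the data were seen, an offset for transcript length.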

Additional observations from a re-analysis of the deposited data

Results flagged for a closer look

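For Fzd1, Dkk2, Axin2 and Apcdd1, every day 2 library lay below every MEF library, and every day 10 library lay above every MEF library. The log2 difference of day 10 over day 2 was 2.91 for Fzd1, 4.38 for Dkk2, 5.27 for Axin2 and 5.46 for Apcdd1. The genes were singled out for this order of the libraries and for passing at day 10 against day 2. The direction of that difference and its passing therefore follow from the choice, and it is given here as a description. The comparison of day 10 with day 2 was itself run over all tested genes, without that choice. None of the 4 genes passed at day 2 against MEF in the fit of all libraries, and Dkk2 did not pass at day 10 against MEF either. No group held enough libraries for a check of single libraries against the rest of their group.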

How the results depend on the processing

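Of the member calls recomputed under the alternatives, 58 of 441 lost significance at day 10 against MEF, 6 of 105 at day 2 against MEF, 50 of 378 at day 10 against day 2, 30 of 399 in Epcam-negative cells against MEF, 13 of 609 against fetal TEC and 10 of 20 in the Epcam sort. With the length offset, added after the data were seen, 2 reversed: Apcdd1 in the Epcam sort (0.29, adjusted p = 0.837) and Lrp6 against fetal TEC (-0.15, adjusted p = 0.665); the cause was not tested. At day 2 against MEF, where 5 of the 42 genes and 938 genes in all were called, DESeq2 called 14 and 2317, the fit of the compared groups 12 and 2949, the fit without the Epcam-positive pair 17 and 3861, the length offset 9 of the 42, and the replicate block 391 genes; leaving out 1 library gave 4 to 17 and 299 to 3718. At day 10 against MEF (21 and 2720), DESeq2 called 4311 genes, the compared groups 32 and 7959, the fit without the pair 6797 and the replicate block 1040, with 13 to 29 and 1028 to 6650 on leaving out 1 library. At day 10 against day 2 (18 and 2151), DESeq2 called 3675 genes, the compared groups 38 and 10927, the fit without the pair 5933 and the replicate block 11 and 831, with 8 to 25 and 564 to 5792. In the Epcam sort (1 and 44), library size alone called 7 genes, no filter 24, DESeq2 11 and 1763, the compared groups 0 and 0, the replicate block 0 and 1 and the length offset 0 of the 42, with 0 to 26 and 0 to 9545. In Epcam-negative cells against MEF (19 and 2025), DESeq2 called 3770 genes, the compared groups 4996, the fit without the pair 6048 and the replicate block 915, with 12 to 27 and 719 to 5897. Against fetal TEC (29 and 10085), leaving out 1 library gave 27 to 32 and 7877 to 12919. Library size alone moved the share of higher calls to 69.5%, against 58.9% with TMM, at day 10 over MEF (17 of the 42 genes higher and 1 lower), to 75.7% against 61.9% in Epcam-negative cells over MEF, and to 71.4% against 93.2% in the Epcam sort. Its median gene changes there were 0.118, 0.227 and -0.242. Deviations of same-numbered libraries correlated by -0.36 to 0.22 over 15 pairs of groups, 3 of them over 0.1. These correlations cannot show whether replicate numbers pair the samples, so pairing is not known. Where a group was left with 1 library, that library was assumed to vary like the others. Depth limits genes near 3 counts, such as Dkk1 in MEF.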
